A study of Homo sapiens and Mus musculus with 21 samples.

Results

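The caecum of mice carrying SW620 Mock tumours was compared with the caecum of mice carrying SW480 Mock tumours, using mouse transcripts only. The members are the 6 libraries of these groups, 3 each, of 21 libraries in the mouse table. SW480 and SW620 are human colon adenocarcinoma lines from the same patient, SW480 from the primary tumour and SW620 from a lymph node metastasis. In both Mock groups the cells had been mock transduced with lentivirus, injected into the caecum wall of NSG mice, and left for 28 days. The other libraries, 3 per group, came from hosts of SW480 dnLEF1 and SW620 dnLEF1 cells (lentiviral, dominant negative LEF1), of SW620 Cas9 cells (mock CRISPR/Cas9, sorted), of SW620 LRP6KO cells (CRISPR/Cas9 against LRP6, sorted for low LRP6), and from PBS hosts injected without tumour cells. The labels give neither sex nor age of the mice, and do not state that each library came from its own animal. P-values therefore measure the spread between these samples.

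NSG mice lack mature T, B and NK lymphocytes, and keep epithelium, smooth muscle, nerves, vessels, fibroblasts, macrophages and granulocytes. A tumour in the caecum wall can change its host tissue by displacing layers of the wall, by drawing in fibroblasts, vessels and myeloid cells, and through secreted factors. In whole tissue, fewer cells of a type and less RNA per cell cannot be told apart. The deposited mouse table lists Ensembl identifiers, and the files do not pair them with gene names. Genes are therefore given by identifier, cell types and pathways could not be assigned, and the caecum label could not be checked against markers.

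Few host genes passed the test of a difference between the 2 lines. Of 19672 genes tested, 14 passed an adjusted p of 0.05 by limma (0.0712% of all genes tested), 11 higher in SW620 Mock hosts (0.0559%) and 3 higher in SW480 Mock hosts (0.0153%). Values are TPM, transcript abundances scaled by length and to a fixed sum within the mouse table, and a change is the difference of mean log2(TPM + 1), SW620 minus SW480. This scale understates changes of low genes. The 11 genes higher in SW620 Mock hosts had log2 changes of 1.02 to 2.81 with adjusted p of 3.25e-04 to 0.0494. In all 14 genes the 3 and 3 libraries did not overlap, which 7.11% of all genes showed with SW620 Mock above and 6.26% with SW480 Mock above. The genes were called on these same libraries, which favours a lack of overlap, so this is a description and adds no support.

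Leaving out any of 4 of the 6 Mock libraries lost more than 7 of these calls, and the calls need the spread pooled over 7 groups. With only the 6 Mock libraries in the fit, limma called 0 genes, with 1492 genes at an unadjusted p under 0.05. The count was 7 without SW480 Mock replicate 1, 6 without SW480 Mock replicate 2, 29 without SW480 Mock replicate 3, 3 without SW620 Mock replicate 1, 5 without SW620 Mock replicate 2 and 21 without SW620 Mock replicate 3. Of these, 6, 4, 9, 3, 4 and 11 were among the 14. After median-ratio scaling 6 genes passed, 3 in each direction.

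Libraries of the lines were about as alike as libraries of the same line. Across tested genes, the correlation of log2(TPM + 1) was 0.925 to 0.960 between a SW620 Mock and a SW480 Mock library. Within a line it was 0.950 to 0.964 among SW620 Mock libraries and 0.930 to 0.950 among SW480 Mock libraries. Replicates of SW480 Mock hosts had a median SD of 0.285 on the log2 scale, the largest of the 7 groups, and those of SW620 Mock hosts one of 0.218. SW480 Mock replicate 2 stood apart, with its most abundant gene at 7.04% of mouse TPM, against 1.04% to 3.22% in the other 20 libraries. More mouse genes were listed above 0 in the SW480 Mock libraries (33442 to 38985) than in the SW620 Mock libraries (29901 to 31709), without overlap. TPM keep no sequencing depth, so depth is unknown and its part in the differences below was not tested.

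For most genes at a moderate level, a large difference between the hosts lay outside the interval. Among 10526 genes with a mean of at least 5 TPM in the 6 Mock libraries, the 95% interval of the log2 change, unadjusted and from the pooled spread, lay between -1 and 1 in 8823 (83.8%). Its median half-width was 0.41, and it excluded 0 in 1273 genes (12.1%). Replicates of SW480 Mock hosts had the largest median SD of all groups, so the pooled spread may make these intervals too narrow. The middle 90% of the 10526 genes had log2 changes of -0.77 to 0.53, with a median of 0.11. The plot of level against change shows the 14 called genes outside the main cloud, beside other genes with changes as large that did not pass.

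**Figure D1:**
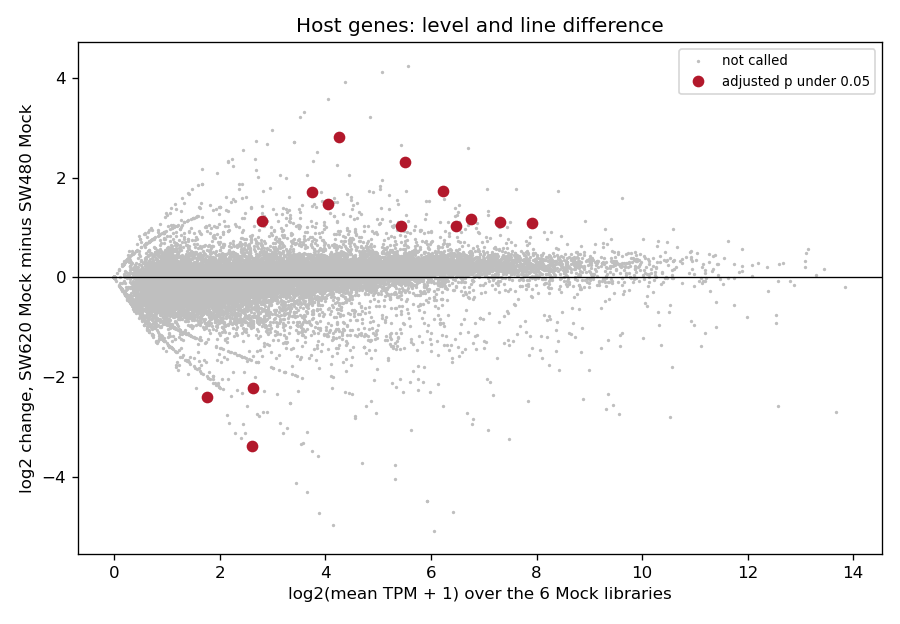
Each point is 1 mouse gene, with the log2 of its mean TPM + 1 over the 6 Mock libraries on the horizontal axis and its log2 change, SW620 Mock minus SW480 Mock, on the vertical axis. Red points are the 14 genes with an adjusted p under 0.05, 11 above and 3 below 0.

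Counted without regard to size, the direction of differences without overlap changed with level. Among 2705 genes with a mean of at least 50 TPM, SW620 Mock libraries lay above all SW480 Mock libraries in 531 (19.6%) and below them in 62 (2.29%). Among 7821 genes from 5 to under 50 TPM these were 652 (8.34%) and 244 (3.12%). Among 6351 genes from 1 to under 5 TPM the order turned, with 179 (2.82%) above and 600 (9.45%) below, and under 1 TPM it was 36 (1.29%) and 325 (11.6%) of 2795. SW480 Mock libraries also had more genes listed above 0, and the part of this in the order of low genes was not tested. Large differences were those without overlap and of at least 1 log2 unit. Of these, 86 (0.437% of all genes tested) had SW620 Mock above and 176 (0.895%) had SW480 Mock above, and this direction did not turn with level. At 50 TPM or more they numbered 20 (0.739%) with SW620 Mock above and 42 (1.55%) with SW480 Mock above. From 5 to under 50 TPM they were 52 (0.665%) and 55 (0.703%). From 1 to under 5 TPM they were 14 (0.22%) and 52 (0.819%), and under 1 TPM 0 (0%) and 27 (0.966%).

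The 2 identifiers with the largest rise in SW620 Mock hosts were low or absent in PBS hosts. ENSMUSG00000082118.1 was at 32.54, 23.19 and 41.29 TPM in SW620 Mock hosts and at 4.08, 3.98 and 2.94 TPM in SW480 Mock hosts. All 3 SW620 values lay above all SW480 values, and the gene was listed at 0 in all 3 PBS libraries. The log2 change was 2.81 with a standard error of 0.45 (limma adjusted p 0.0271, and 0.0258 to 0.112 over its alternatives). Every other SW620 group was also high, with 54.18, 75.3 and 68.04 TPM in dnLEF1 hosts, 78.82, 60.67 and 115.95 TPM in Cas9 hosts and 33.05, 59.53 and 70.1 TPM in LRP6KO hosts. SW480 dnLEF1 hosts had 13.16, 1.86 and 1.90 TPM, below every SW620 library.

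ENSMUSG00000092014.1 was also higher in every SW620 group than in either SW480 group by the means. It was at 47.62, 72.07 and 105.64 TPM in SW620 Mock hosts and at 9.39, 19.06 and 13.75 TPM in SW480 Mock hosts, without overlap. The log2 change was 2.32 with a standard error of 0.42 (limma adjusted p 0.0494, and 0.0314 to 0.322 over its alternatives). PBS hosts had 3.9, 2.11 and 1.01 TPM, below every xenograft library. Means were 219 ± 26.9 TPM in SW620 dnLEF1, 183 ± 40.9 in Cas9 and 140 ± 59.5 in LRP6KO hosts, against 10.7 ± 5.67 in SW480 dnLEF1 hosts (SD, n = 3 each).

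Among genes higher in SW480 Mock hosts, 1 was high in both SW480 groups. ENSMUSG00000068289.6 was at 9.01, 8.58 and 9.33 TPM in SW480 Mock hosts and at 0.67, 3 and 0.48 TPM in SW620 Mock hosts. The groups did not overlap, and SW620 Mock replicate 2 was the highest of its group. The log2 change was -2.22 with a standard error of 0.29 (limma adjusted p 0.00396, and 3e-05 to 0.442 over its alternatives). SW480 dnLEF1 hosts had 6.23, 6.12 and 8.37 TPM. The PBS, Cas9, LRP6KO and SW620 dnLEF1 libraries lay between 0.10 and 1.06 TPM.

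ENSMUSG00000077590.1 was listed above 0 in SW480 Mock libraries only. It was at 13.28, 12.15 and 5.05 TPM there and listed at 0 in the other 18 libraries, SW480 dnLEF1 included. The gene passed the filter on low values only through the SW480 Mock libraries, and its pooled spread comes mostly from zeros, so its call is a description and neither a p nor a fold is given. A further gene of this kind is among the 3 counted as higher in SW480 Mock hosts. Over all genes tested, 22 (0.112%) had at least 1 TPM in all SW480 Mock libraries and 0 in all SW620 Mock libraries. The reverse was seen in 0 genes (0%). Most of the 22 were not of this kind, since only 2 were listed at 0 in every library outside SW480 Mock. In all PBS libraries 3 of the 22 were listed at 0, and in all SW480 dnLEF1 libraries 6. SW480 Mock libraries also had more genes listed above 0, and the part of this in the count was not tested.

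**Figure D2:**
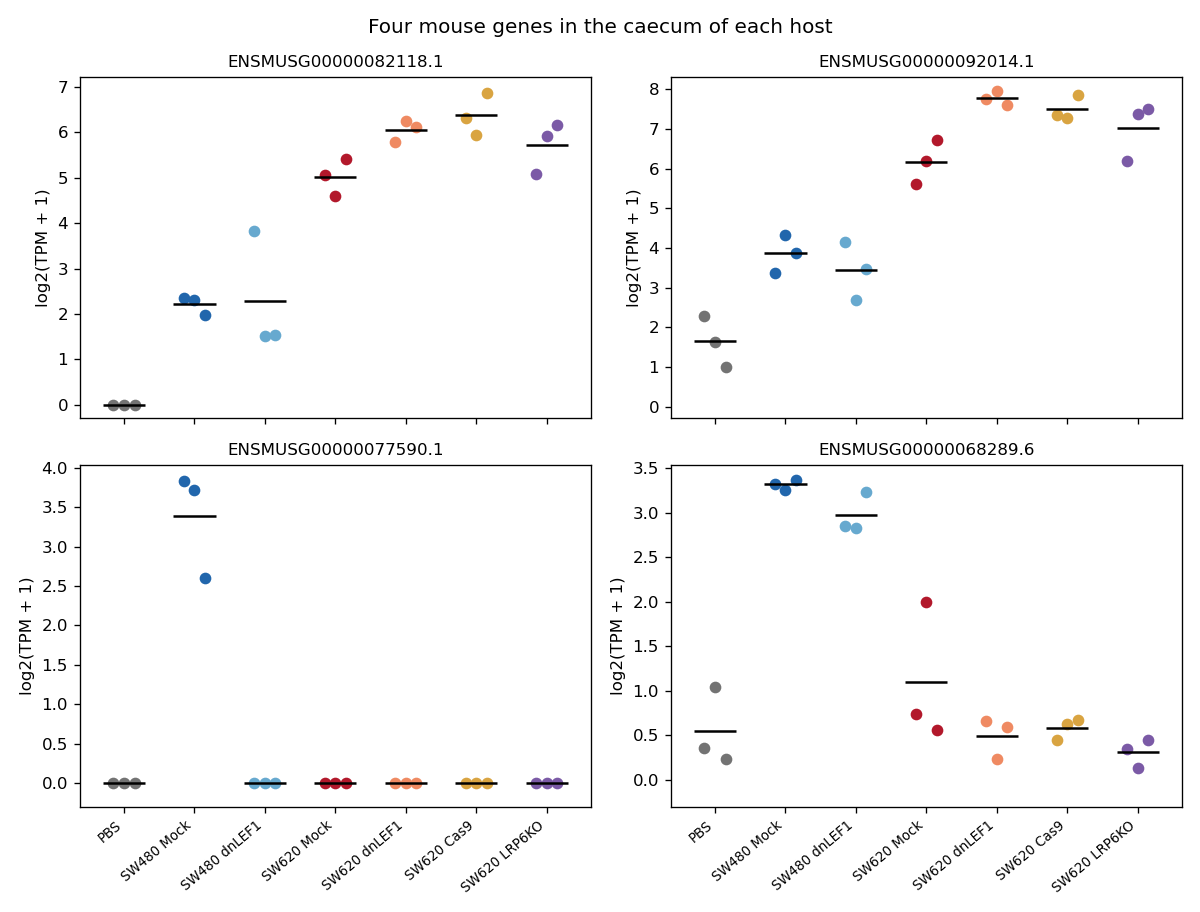
Each panel shows 1 mouse gene, with log2(TPM + 1) on the vertical axis and the 7 host groups on the horizontal axis; points are libraries (n = 3) and lines are group means. The upper genes are higher in every SW620 group than in either SW480 group by their means, the lower left gene is above 0 in SW480 Mock alone, and the lower right gene is higher in both SW480 groups.

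With 3 against 3 libraries an exact two-sided permutation test cannot go below p = 0.1, which every gene without overlap reaches by construction. Per the submitters' processing notes, reads were handled against hg38 and mm10, and how human and mouse reads were divided is not given in the sources used here. Among the 14 called genes, 3 were listed at 0 in all PBS libraries, as were 2.31% of all genes tested. Of the 3, ENSMUSG00000077590.1 and the other of its kind passed the filter only through SW480 Mock libraries. Both were at 0 in every other library, SW480 dnLEF1 included, so the count is a description. The third was ENSMUSG00000082118.1. A part of human reads in these values was not tested. Near-identical copies and overlapping genes could not be looked up without an annotation of the mouse identifiers.

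The 9 other genes higher in SW620 Mock hosts showed another order of groups. They had mean levels of 8.61 to 327 TPM in SW620 Mock hosts, 3.37 to 153 TPM in SW480 Mock hosts and 4.14 to 198 TPM in PBS hosts, so none was absent without tumour cells. Their log2 changes between the Mock hosts were 1.02 to 1.73. Against PBS they lay at 0.42 to 1.96 in SW620 Mock hosts and at -0.60 to 0.24 in SW480 Mock hosts. These comparisons share the PBS and the Mock libraries with each other. The Mock libraries also chose the genes, which favours high SW620 Mock values, so the counts that follow are a description. Of all 11 higher genes, 8 were called above PBS in SW620 Mock hosts, where 2.66% of all genes tested were called higher. In SW480 Mock hosts 2 of the 11 were called above PBS (2.01% of all genes) and 0 below it (0.356%). The 2 are the identifiers given above.

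Averaged over these 9 genes, log2(TPM + 1) was 4.61 to 4.95 in SW480 Mock libraries, the group with the lowest mean, and 4.91 to 5.36 in PBS libraries, which overlapped with them. It was 5.85 to 6.29 in SW620 Mock, 6.10 to 6.32 in SW620 Cas9 and 5.96 to 6.05 in SW620 LRP6KO libraries. The SW620 dnLEF1 libraries lay between at 5.51 to 5.67 and overlapped with SW480 dnLEF1 libraries at 5.08 to 5.71. The genes were chosen on the Mock libraries, so the gap between those 2 groups is a description. All 11 higher genes had every Cas9 library above every SW480 Mock library (12.9% of all genes did), and likewise every LRP6KO library (8.05%). For SW620 dnLEF1 hosts 9 of the 11 did so (6.66%). These counts share the SW480 Mock libraries that chose the genes. In 10 of the 11, SW480 Mock had the lowest mean of the 6 xenograft groups, as in 17.2% of all genes.

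**Figure D3:**
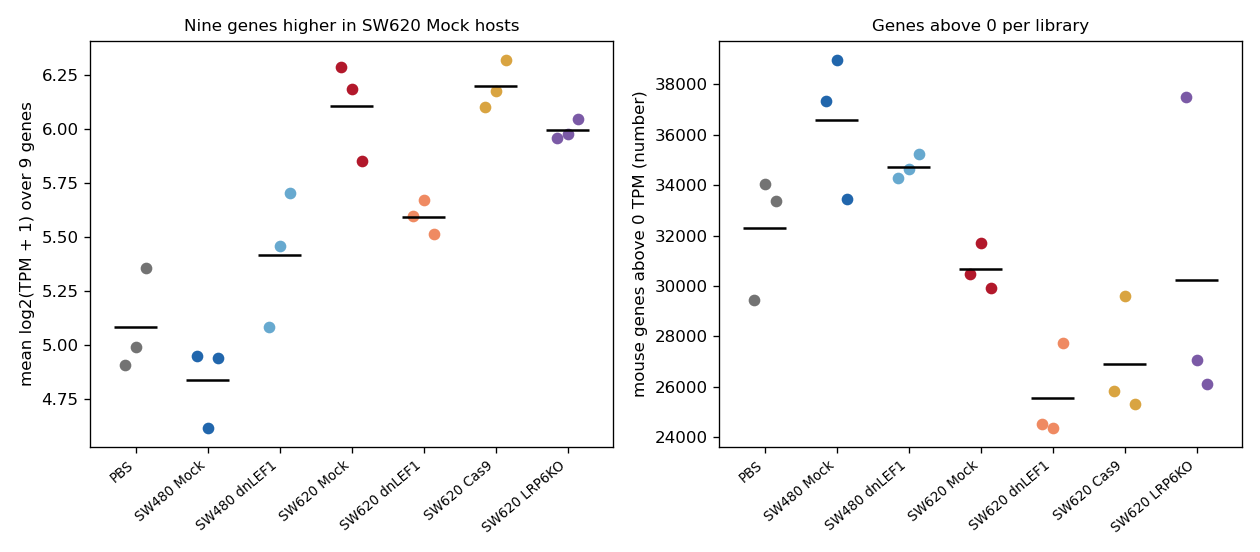
Left, mean log2(TPM + 1) over the 9 genes higher in SW620 Mock hosts without the 2 given by identifier; right, mouse genes listed above 0 TPM per library; each point is a library (n = 3 per group) and lines are group means. SW480 Mock libraries have the lowest mean on the left, at 4.61 to 4.95 and overlapping with PBS, and include the library with the most genes on the right, 38985.

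The same contrast of lines can be read in libraries whose levels did not enter the Mock change. Their spread did enter the pooled fit that called the genes, so they are not independent of the choice. Hosts of SW620 dnLEF1 and SW480 dnLEF1 tumours differ by line as the Mock hosts do, though both carry dnLEF1. By limma 592 genes were called there (3.01%), 399 higher in SW620 (2.03%) and 193 lower (0.981%). Leaving out SW480 dnLEF1 replicate 1 gave 890 calls, replicate 2 of that group 167 and replicate 3 191. Leaving out SW620 dnLEF1 replicate 1 gave 386, replicate 2 223 and replicate 3 307. With only these 6 libraries in the fit it was 127.

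Of the 14 genes called between Mock hosts, 4 were called in the same direction between dnLEF1 hosts, which is 28.6% of the Mock calls and 0.676% of the dnLEF1 calls. ENSMUSG00000082118.1 had a log2 change of 3.76 between dnLEF1 hosts (SE 0.45, limma adjusted p 4.58e-04) and ENSMUSG00000092014.1 one of 4.34 (SE 0.42, adjusted p 8.52e-05). ENSMUSG00000068289.6 had a log2 change of -2.47 (SE 0.29, adjusted p 4.02e-04). The fourth was among the 9 other genes, at 1.03. The remaining 8 of those 9 were not called, with values from -0.27 to 0.82 and 5 of them below 0. The gene ENSMUSG00000077590.1 and the other of its kind were listed at 0 in all dnLEF1 libraries.

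**Figure D4:**
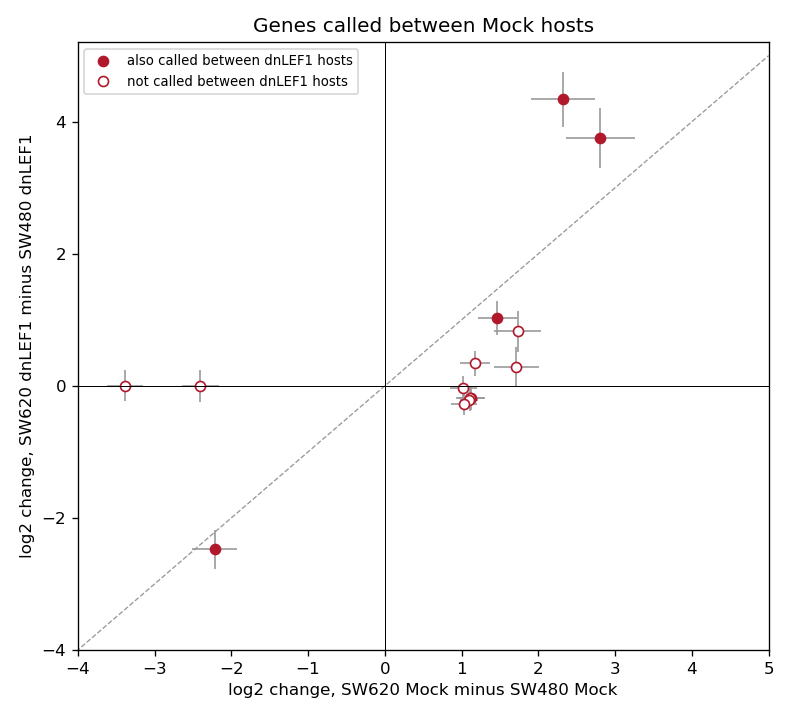
The 14 genes called between Mock hosts, with their log2 change between Mock hosts on the horizontal axis and between dnLEF1 hosts on the vertical axis; bars are standard errors, filled points are also called between dnLEF1 hosts and the dashed line marks equal changes. The 4 filled points keep their direction, and the cluster of open points near 1 on the horizontal axis lies around 0 on the vertical axis.

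A test of the difference between these contrasts, dnLEF1 minus Mock, called 6 of the 14 genes (0.691% of all genes tested), 4 of the 11 higher genes and 2 of the 3 lower. The Mock contrast enters that difference, so the choice of genes on it bears on this count. The 2 lower genes are ENSMUSG00000077590.1 and the other of its kind, for which the difference only restates the level in SW480 Mock libraries. Read the other way, 119 of the 592 genes called between dnLEF1 hosts (20.1%) had an unadjusted p under 0.05 between Mock hosts in either direction, against 9.82% of all genes tested. Both contrasts use the same pooled spread for each gene, which favours a small p in both, so this share is a description. Of the 119, 58 had the direction of the dnLEF1 hosts and 61 the opposite one. Of the 193 genes lower in SW620 dnLEF1 hosts, 36 (18.7%) had a Mock change below 0, against 49.7% of all genes. Of the 399 higher genes, 230 (57.6%) had a Mock change above 0, against 49.8% of all genes. The sign of the Mock change varied with level, with a median of 0 over all genes tested and 0.11 over genes of at least 5 TPM. The shares over genes of matched level were not computed, so these 2 comparisons are a description. The number of genes listed above 0 also differed by line between dnLEF1 hosts, at 24350 to 27749 in SW620 and 34288 to 35251 in SW480, and its part in these values was not tested.

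Averaged over the Mock and dnLEF1 hosts, the line contrast called 158 genes by limma (0.803%), 135 higher in SW620 hosts (0.686%) and 23 lower (0.117%). Without the filter on low values it called 70 higher and 40 lower. Of the 14 genes called between Mock hosts, 7 of the 11 higher and 3 of the 3 lower passed in this contrast, which holds the Mock libraries too. Of the 3 lower, ENSMUSG00000077590.1 and the other of its kind are at 0 in all dnLEF1 libraries. For them the average only restates the level in SW480 Mock libraries. The average contrast called 78 or 95 genes without SW480 dnLEF1 replicate 2 or 3. It called 96 or 102 without SW480 Mock replicate 2 or 3. Without SW620 dnLEF1 replicate 2 or 3 it called 71 or 101, and without SW620 Mock replicate 2 or 3 94 or 80. Without replicate 1 of SW480 dnLEF1 or SW480 Mock it called 131 or 228. Without replicate 1 of SW620 dnLEF1 or SW620 Mock it called 167 or 186.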

How the data were processed

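RNA from frozen caecum was sequenced with the Smart-seq2 protocol, per the labels' protocols. Per the submitters' processing notes, Trimmomatic 0.35, Bowtie 1.2 and RSEM 1.2.31 were used with hg38 and mm10. The annotation, and how human and mouse reads were divided, are not given in the sources used here. The authors deposited TPM per gene in 1 mouse table of 54146 identifiers, summing to 1000000 per library. The human table was not used here. None of the mouse identifiers (0) was found in the name tables, so 39 prepared gene lists could not be used.

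Genes at 1 TPM or more in 3 libraries or more entered the test, made with limma 3.58.1 (R 4.3.3, intensity trend) on log2(TPM + 1), all 7 groups in the fit, with Benjamini-Hochberg adjustment over all tested genes and a threshold of 0.05. The test was tried on simulated data. Named identifiers, 2 each way, passed the threshold, reached a mean of 5 TPM in 1 group and did not overlap: those with the largest change upward, and, since only 2 passed downward, those with the smallest p there. Members and lists were chosen with earlier results of these data known. Alternatives were the pseudocount, the filter, scaling, the groups in the fit, array weights, a replicate block and libraries left out. Figures used Python 3.11.15 and matplotlib 3.10.9.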

Additional observations from a re-analysis of the deposited data

Results flagged for a closer look

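The line difference itself differed between dnLEF1 and Mock hosts in 136 genes by limma (0.691% of those tested), 48 with a larger and 88 with a smaller value between dnLEF1 hosts. This balance was not stable. It was 62 and 55 with median-ratio scaling, and 35 and 28 without SW480 Mock replicate 2. Without SW480 Mock replicate 3 it was 197 and 194, and without SW620 Mock replicate 3 188 and 184. Other runs kept it, with 54 and 89 at a pseudocount of 0.1 and 91 and 204 at a mean of at least 5 TPM. So did those without SW480 dnLEF1 replicate 1 (218 and 521) or SW480 Mock replicate 1 (18 and 54). In 126 of the 136 the changes had opposite signs in the 2 settings. A choice of genes on the difference favours this, and the share over all genes was not computed. Between dnLEF1 hosts 106 of the 136 were called (3.01% of all genes tested), and between Mock hosts 6 (0.0712%). Leaving out SW480 Mock replicate 1 gave 72 genes, replicate 2 of that group 63 and replicate 3 391. Leaving out SW620 Mock replicate 1 gave 8, replicate 2 16 and replicate 3 372. Leaving out SW480 dnLEF1 replicate 1 gave 739, replicate 2 22 and replicate 3 28. Without SW620 dnLEF1 replicate 1 it was 55, without replicate 2 49 and without replicate 3 94.

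ENSMUSG00000077590.1 is among the 136, with a value of 3.38 on the log2(TPM + 1) scale. This value only restates the level in SW480 Mock libraries, since all other libraries are listed at 0, and it is neither a fold change nor a test of its own.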

How the results depend on the processing

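No named identifier changed direction under any alternative run. Their Mock libraries did not overlap, so leaving out a library or changing the pseudocount or filter could not turn the direction. ENSMUSG00000068289.6 passed in 9 of 13, ENSMUSG00000082118.1 in 6 of 14 and ENSMUSG00000092014.1 in 3 of 14. The counts are in the order Mock contrast, dnLEF1 contrast, difference between them, and average of both, which called 158 genes, 135 higher and 23 lower. Without the filter on low values the first 3 counts were 25 (9 higher, 16 lower), 270 and 53. With a mean of at least 5 TPM the difference gave 295 and the Mock contrast 13 (13 higher, 0 lower). The lower identifiers named above were not tested there. Median-ratio scaling gave 6 for the Mock contrast, and its higher calls went from 11 of 14 to 3 of 6. With only the groups compared in the fit the counts were 0, 127, 2 and 90. With array weights the last 3 were 2849, 1557 and 318. With the replicate block the Mock contrast gave 5 (2 higher, 3 lower), the difference 61 and the average 104. The labels do not say what a replicate number shares, and same-numbered SW620 and SW480 Mock libraries did not deviate together (r of -0.036, -0.034 and -0.151). Leaving out 1 library gave 3 to 29, 167 to 890, 8 to 739 and 71 to 228 genes. Without SW620 LRP6KO replicate 1, an alternative chosen after seeing the data, the Mock contrast kept its 14 genes. The cause of these shifts was not tested.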
